A study of Mus musculus with 10 samples.

Results

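The 9 genes described here, Pou5f1, Nanog, Sox2, Utf1, L1td1, Dppa4, Dppa5a, Epcam and Pim2, mark the pluripotent epiblast of the mouse embryo. They were taken by gene symbol from a table of 20974 genes, in which each symbol occurs once. All 9 passed the minimum for testing, a mean normalized count of 15 in at least 1 genotype, as did 15603 genes in all. RNA was sequenced from 10 single embryos at embryonic day (E) 7.5, 5 Rreb1-/- and 5 Rreb1+/+. The strain is labelled CD1, and per the study's methods the mice were kept on a mixed CD-1, 129 Sv and C57BL6/C2J background. Both genotypes came from crosses of Rreb1+/- parents, and the parietal endoderm, the outermost membrane, was taken off each embryo for genotyping. The embryonic and the remaining extraembryonic tissues were sequenced together. The Rreb1-/- embryos lack, in every cell, most of the coding sequence of exon 6 on both alleles. A line with a longer and a line with a shorter deletion were combined, and the labels do not say from which line an embryo came. The embryos of each genotype are numbered replicates 2 to 6, and no label gives a litter, a collection day or a sex.

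Pluripotency is the capacity of epiblast cells to form all tissues of the fetus. It is kept by a network in which the transcription factors POU5F1 (OCT4), SOX2 and NANOG bind DNA together, at paired octamer and SOX motifs, and activate their own genes and many others. In the mouse the network is active in the inner cell mass and passes through a formative and then a primed state after implantation. It is shut down as cells leave through the primitive streak to become mesoderm and endoderm, or turn into neurectoderm, so that these transcripts decline as gastrulation proceeds.

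The deposited values correspond to 31467767 to 35446574 reads counted in genes per Rreb1-/- embryo, against 33317560 to 35786876 per Rreb1+/+ embryo. Normalized counts of Rreb1 were 3988 to 5715 in the Rreb1-/- embryos and 2365 to 2924 in the Rreb1+/+ embryos. A sum over the whole gene includes sequence outside the deletion and so does not check the genotype labels. Expression of all 15603 tested genes set replicates 5 and 6 of both genotypes apart from replicates 2 to 4 on the first principal component, which held 37% of the variance. The genotypes also lay apart on it within each set. In replicates 2 to 4 Rreb1-/- embryos lay at −47.5 to −43.7 and Rreb1+/+ embryos at −6.77 to −3.64. In replicates 5 and 6 Rreb1-/- embryos lay at 27.8 and 33.9, and Rreb1+/+ embryos at 48.2 and 44.5. The sets of replicates used below follow the split by replicate number, which was seen in these embryos' expression and is not given by a label. Differences between the sets are therefore described without a test. Y-linked transcripts summed to 5849 to 9172 normalized counts in 4 Rreb1-/- embryos (replicates 3 to 6), and to 2.1 in Rreb1-/- replicate 2 and at most 3.8 in the Rreb1+/+ embryos. Genotype and sex can thus only be told apart in part.

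Across all 10 embryos none of the 9 genes passed the test between genotypes without a block, and 1, Dppa4, passed with the replicate number as a block (limma, adjusted p = 0.0427). In both genotypes 7 of the 9 were lower in every embryo of replicates 5 and 6 than in any embryo of replicates 2 to 4, as were 3.29% of all tested genes, while 5.37% of all tested genes had the opposite order. Pou5f1 stood at 36.5% of its replicate 2 to 4 mean in replicates 5 and 6 of Rreb1-/- embryos and at 42.7% in those of Rreb1+/+ embryos. Nanog stood at 28.3% in Rreb1-/- and 39.5% in Rreb1+/+ embryos, and Sox2 at 73.7% in Rreb1-/- and 93.9% in Rreb1+/+ embryos. The smallest p between genotypes belonged to Dppa4, which was 2.15-fold higher in Rreb1-/- than in Rreb1+/+ embryos within replicates 2 to 4, and 1.23-fold higher within replicates 5 and 6.

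The promoters of the members were also read for the 2 motifs through which the network binds. The octamer core was searched as ATGCAAA and, on the other strand, TTTGCAT, and the SOX core as CATTGT and ACAATG. The letters were chosen with the windows in view. The windows, from RefSeq (GRCm38.p6), run from 250 bases before to 50 bases after an annotated start, on the gene's strand, and 7 of the 9 genes have 9 windows between them. The 3 genes with an octamer core, Nanog, Pim2 and Sox2, are shown, with octamer and SOX cores in capitals.
Nanog: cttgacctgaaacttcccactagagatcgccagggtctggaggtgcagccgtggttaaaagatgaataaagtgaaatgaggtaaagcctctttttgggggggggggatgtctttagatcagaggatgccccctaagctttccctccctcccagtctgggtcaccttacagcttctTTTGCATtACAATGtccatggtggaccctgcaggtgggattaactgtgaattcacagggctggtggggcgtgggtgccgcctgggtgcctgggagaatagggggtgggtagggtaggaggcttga
Pim2: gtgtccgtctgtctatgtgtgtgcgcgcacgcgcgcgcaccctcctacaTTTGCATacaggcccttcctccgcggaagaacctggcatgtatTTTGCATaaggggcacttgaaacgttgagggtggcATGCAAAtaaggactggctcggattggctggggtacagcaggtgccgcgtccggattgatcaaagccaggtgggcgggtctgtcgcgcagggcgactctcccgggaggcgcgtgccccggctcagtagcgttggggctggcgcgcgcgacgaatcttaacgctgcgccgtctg
Sox2: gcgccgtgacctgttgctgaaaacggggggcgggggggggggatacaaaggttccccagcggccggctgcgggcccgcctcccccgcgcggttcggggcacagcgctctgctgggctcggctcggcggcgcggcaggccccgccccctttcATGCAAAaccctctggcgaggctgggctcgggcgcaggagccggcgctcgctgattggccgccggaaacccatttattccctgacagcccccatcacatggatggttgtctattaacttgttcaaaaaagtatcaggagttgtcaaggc
The Nanog window is chr6:122707239-122707538, the Pim2 window chrX:7878056-7878355 and the Sox2 window chr3:34649745-34650044, all on the plus strand of GRCm38.p6, and the RefSeq start of Sox2 lies upstream of the gene start in GENCODE given further on. In Nanog a SOX core and an octamer core stood 1 letter apart on the strand opposite to the gene, 75 to 62 bases before the upstream start, and the same pair lies in the window of its second start. This composite, the 2 cores in that order and with 1 letter between them, occurred in 2 of 32851 windows genome-wide (0.00609%), both of Nanog. The Pim2 window held 3 octamer cores, which began 201, 158 and 123 bases before the start, and 9 of all windows (0.0274%) held at least 3. The Sox2 window held 1, beginning 99 bases before the start, as did 4.63% of all windows when at least 1 is asked for. No octamer core was present in the windows of Pou5f1, Utf1, L1td1 and Epcam, and the window of the second Pou5f1 start held a SOX core, found in 12.6% of all windows. A match describes letters only and is not a measured binding site. Sequence outside the windows was not read, and Dppa4 and Dppa5a have no window. With an octamer core in the window, Nanog stood in replicates 5 and 6 of Rreb1-/- embryos at 28.3% of its level in replicates 2 to 4, Pim2 at 40.4% and Sox2 at 73.7%. In Rreb1+/+ embryos these were 39.5%, 55.6% and 93.9%. Without one in the window, Pou5f1 stood at 36.5%, L1td1 at 46.8%, Utf1 at 68.2% and Epcam at 69.9% in Rreb1-/- embryos. In Rreb1+/+ embryos these were 42.7%, 66.1%, 59.5% and 75.7%. A relation between the letters and the levels was not tested.

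**Figure D1:**
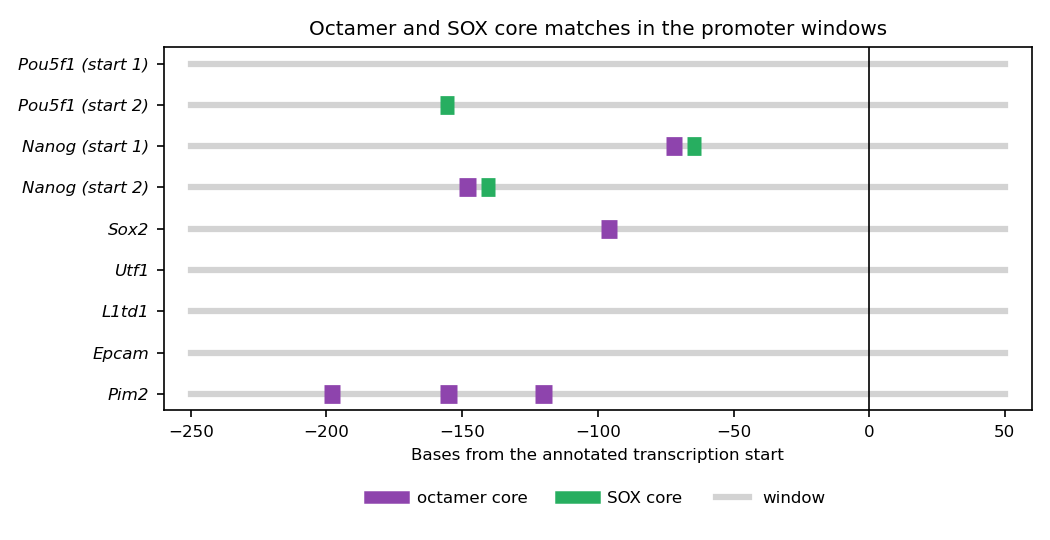
Positions of octamer core (purple) and SOX core (green) matches in the promoter windows of 7 pluripotency genes, with 2 windows each for Pou5f1 and Nanog. The x axis gives bases from the annotated start and grey lines the windows. The pair in Nanog appears in both of its windows, and Pim2 holds 3 octamer cores.

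The 9 genes differ widely in level, and comparing genes requires counts per length. Per kilobase of annotated exon, normalized counts in the Rreb1-/- embryos averaged 3171 for Pou5f1, 2105 for Epcam, 1767 for L1td1, 1237 for Pim2, 796 for Utf1, 574 for Sox2, 315 for Nanog, 296 for Dppa4 and 137 for Dppa5a. The Rreb1+/+ means per kilobase had the same order down to Nanog, at 3035 for Pou5f1, 2066 for Epcam, 1546 for L1td1, 1240 for Pim2, 619 for Utf1, 516 for Sox2 and 245 for Nanog. Dppa5a (181) then stood above Dppa4 (157) in Rreb1+/+ embryos. These means pool both replicate sets. Within replicates 5 and 6 Epcam stood above Pou5f1, at 1672 and 1553 per kilobase in Rreb1-/- embryos and 1732 and 1682 in Rreb1+/+ embryos, whereas within replicates 2 to 4 Pou5f1 was the higher. The ranges of neighbours in this order overlapped in both genotypes, except that Sox2 (lowest 490 per kilobase) lay above Nanog (highest 353 per kilobase) in every Rreb1+/+ embryo.

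Pou5f1 (ENSMUSG00000024406.16, chr17:35506018-35510772, plus strand, GRCm38) encodes OCT4, the POU factor without which the pluripotent epiblast does not form. Its normalized counts in Rreb1-/- embryos were 7207, 11366, 10088, 3060 and 3922 in replicates 2 to 6, against 6806, 8781, 10969, 3411 and 4150 in Rreb1+/+ embryos. Replicates 5 and 6 of both genotypes were the 4 lowest embryos, and the genotypes overlapped throughout. Rreb1-/- over Rreb1+/+, the log2 fold change was 0.02 ± 0.42 (SE), with a 95% interval of −0.89 to 0.93 (limma, Benjamini-Hochberg adjusted p = 0.987, and p = 0.960 in an exact two-sided permutation test, n = 5 each). The annotated span of the antisense gene Gm19553, on the opposite strand, touches an exon of Pou5f1, and its mean normalized count was 3.73.

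Nanog (ENSMUSG00000012396.12, chr6:122707489-122714633, plus strand) encodes a homeodomain factor that, in the gastrulating mouse, is expressed in the posterior epiblast. In Rreb1-/- embryos its normalized counts were 990, 902, 1077, 318 and 243 in replicates 2 to 6, and in Rreb1+/+ embryos they were 619, 791, 763, 254 and 318. All 4 embryos of replicates 5 and 6 again lay below the other 6. Within replicates 2 to 4 the 3 Rreb1-/- embryos lay above the 3 Rreb1+/+ embryos, with a log2 fold change of 0.45 ± 0.13 that did not pass (limma, adjusted p = 0.120). Within replicates 5 and 6 the genotypes overlapped, and the log2 fold change was −0.03 ± 0.21 (limma, adjusted p = 0.969). Over all embryos the log2 fold change was 0.26 ± 0.48, with an interval of −0.80 to 1.32 (limma, adjusted p = 0.825, exact permutation p = 0.595).

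Sox2 (ENSMUSG00000074637.7, chr3:34650405-34652461, plus strand) encodes the HMG-box partner of OCT4 and, unlike Pou5f1 and Nanog, stays on in neurectoderm and is also used by extraembryonic ectoderm. Its normalized counts were 1210, 1506, 1240, 1077 and 868 in replicates 2 to 6 of Rreb1-/- embryos, against 1029, 1007, 1229, 1033 and 1011 in those of Rreb1+/+ embryos. Sox2 varied least of the 9 genes in Rreb1+/+ embryos, with a coefficient of variation of 8.86%, against 46.2% for Pou5f1. The lowest embryo was Rreb1-/- replicate 6 and the highest Rreb1-/- replicate 3, and the replicate sets overlapped. The log2 fold change between genotypes was 0.13 ± 0.13, with an interval of −0.15 to 0.42 (limma, adjusted p = 0.634, exact permutation p = 0.318). The long non-coding gene Sox2ot runs over Sox2 on the same strand and had a mean normalized count of 13.8.

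Utf1 and L1td1 are downstream members of the network. Utf1 (ENSMUSG00000047751.9, chr7:139943789-139945112, plus strand) encodes a chromatin-associated coactivator of pluripotent cells and is also used by extraembryonic ectoderm. Its normalized counts were 694, 1737, 926, 714 and 813 in Rreb1-/- replicates 2 to 6, against 596, 791, 1331, 423 and 656 in Rreb1+/+ replicates 2 to 6. Utf1 was the only member besides Sox2 whose replicate sets overlapped, and its log2 fold change was 0.38 ± 0.31, with an interval of −0.31 to 1.06 (limma, adjusted p = 0.570, exact permutation p = 0.310). L1td1 (ENSMUSG00000087166.9, chr4:98726734-98738480, plus strand) encodes an RNA-binding protein derived from a LINE-1 element. It reached 7651, 6388, 7328, 3214 and 3459 normalized counts in Rreb1-/- replicates 2 to 6 and 5170, 5612, 6246, 3852 and 3649 in Rreb1+/+ replicates 2 to 6. L1td1 was higher in Rreb1-/- embryos within replicates 2 to 4 and lower in them within replicates 5 and 6, and neither log2 fold change passed: 0.33 ± 0.10 (limma, adjusted p = 0.153) in replicates 2 to 4 and −0.17 ± 0.09 (limma, adjusted p = 0.544) in replicates 5 and 6. Over all embryos it was 0.13 ± 0.27 (limma, adjusted p = 0.845).

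Dppa4 and Dppa5a belong to the developmental pluripotency associated genes. Dppa4 (ENSMUSG00000058550.14, chr16:48283733-48294237, plus strand) encodes a SAP-domain chromatin protein that acts with its neighbour DPPA2. Its normalized counts in Rreb1-/- embryos were 652, 746, 589, 271 and 201 in replicates 2 to 6, and in Rreb1+/+ embryos 330, 278, 314, 204 and 181. Every Rreb1-/- embryo of replicates 2 to 4 lay above every Rreb1+/+ embryo of the series, whereas Rreb1-/- replicates 5 and 6 lay below Rreb1+/+ replicates 2 to 4. Over all embryos the log2 fold change of 0.77 ± 0.36, with an interval of −0.01 to 1.56, did not pass (limma, adjusted p = 0.284, exact permutation p = 0.127). Blocking on the replicate number, the same difference did (adjusted p = 0.0427), and in that fit 6.87% of all genes were called and 4.59% called higher. Within replicates 2 to 4 alone the log2 fold change was 1.10 ± 0.14 (limma, adjusted p = 0.00737), in a comparison that called 3.59% of 15548 genes and 2.18% higher. Within replicates 5 and 6 alone it was 0.28 ± 0.21 (limma, adjusted p = 0.636), where 0.663% of 15694 genes were called. Whether the genotype difference of Dppa4 differs between the sets was not tested. Dppa2, its partner, had 197, 159, 112, 42.7 and 53.2 normalized counts in Rreb1-/- replicates 2 to 6, against 197, 103, 120, 58.6 and 81.0 in Rreb1+/+ embryos. The partner gene, looked up after the values of Dppa4 were seen, thus overlapped between the genotypes (limma, adjusted p = 0.928).

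Dppa5a (ENSMUSG00000060461.5, chr9:78367052-78368177, minus strand) encodes a small KH-domain RNA-binding protein and had the lowest normalized counts of the members, with 128, 120, 102, 49.3 and 24 normalized counts in Rreb1-/- replicates 2 to 6 and 197, 103, 113, 93.2 and 55.6 in Rreb1+/+ replicates 2 to 6. It was the member with the largest negative log2 fold change, −0.52 ± 0.47 (limma, adjusted p = 0.606). Its transcript matches 9 other annotated genes at 90% identity or more over at least 250 bases, 8 of them pseudogenes. The ninth, Pigp, is in the table at a mean of 714. Dppa4 and Pim2 have 2 such pseudogene copies each and L1td1 has 1. How reads shared between copies were counted is not given in the sources used here, so the levels of these genes, of Dppa5a above all, are uncertain to that extent.

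Epcam (ENSMUSG00000045394.8, chr17:87635979-87651129, plus strand) encodes the epithelial cell adhesion molecule, which epiblast cells lose as they pass through the streak and which endoderm and extraembryonic epithelia also carry. It spanned 3661 to 5552 normalized counts in Rreb1-/- embryos and 3589 to 5326 in Rreb1+/+ embryos, the narrowest span relative to its level of any member whose replicate sets did not overlap. Replicates 5 and 6 lay between 3589 and 4016 and replicates 2 to 4 between 4833 and 5552, with both genotypes in each range. Its log2 fold change was 0.02 ± 0.15, with an interval of −0.30 to 0.34 (limma, adjusted p = 0.963). Pim2 (ENSMUSG00000031155.14, chrX:7878262-7883432, plus strand) encodes a serine/threonine kinase that promotes cell survival and growth. It spanned 1414 to 6216 normalized counts in Rreb1-/- embryos and 2310 to 5374 in Rreb1+/+ embryos, the lowest being Rreb1-/- replicate 6 and the highest Rreb1-/- replicate 4. The mean was 3459 ± 1898 in Rreb1-/- embryos and 3467 ± 1392 in Rreb1+/+ embryos (SD, n = 5 each), and the log2 fold change was −0.10 ± 0.38 (limma, adjusted p = 0.923). Pim2 is X-linked, and Rreb1-/- replicate 2, which lacks Y-linked transcripts, had 2977 normalized counts, inside the range of the other 4 Rreb1-/- embryos. Within replicates 2 to 4 it was the lowest Rreb1-/- embryo, below 4433 and 6216 in replicates 3 and 4. Rreb1+/+ replicate 2 was likewise the lowest of its set, at 2759 against 4513 and 5374.

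**Figure D2:**
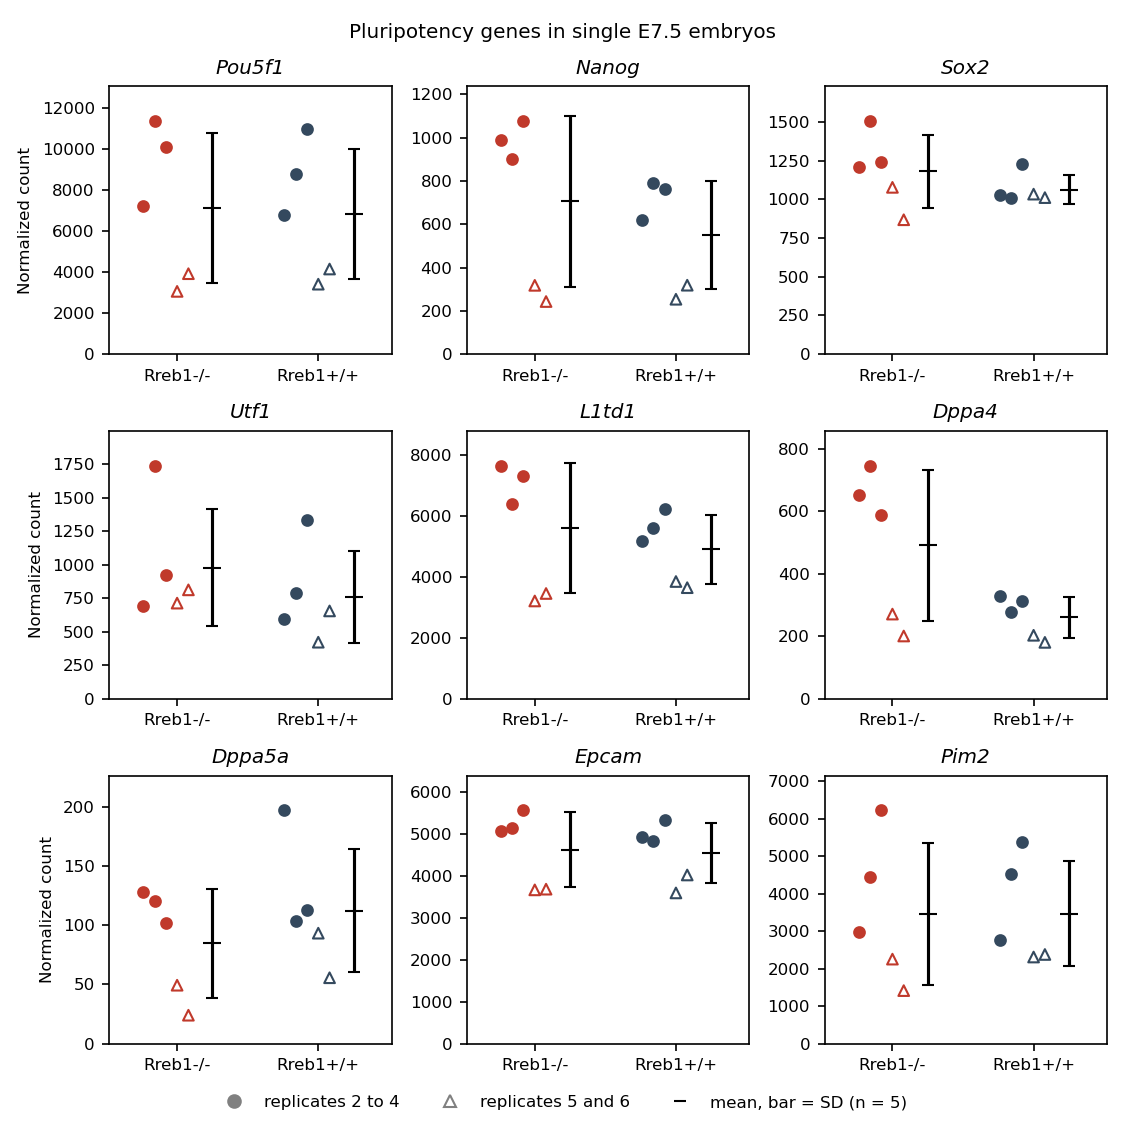
Normalized counts of the 9 pluripotency genes in each embryo (linear y axes from 0), with Rreb1-/- embryos left and Rreb1+/+ embryos right. Filled circles are replicates 2 to 4, open triangles replicates 5 and 6, and bars the mean ± SD (n = 5). The triangles lie below all circles for every gene but Sox2 and Utf1, and Dppa4 shows 3 Rreb1-/- embryos from 589 to 746, above all others.

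The genotype test called 0 of the 9 genes (limma, threshold 0.05 on p adjusted over all tested genes), against 4.26% of all 15603. A fit blocked on the replicate number, or with the replicate set as a factor, called 1, Dppa4. Without those terms none reached an unadjusted p under 0.05 by limma, and Dppa4 did by edgeR and by DESeq2 on the recovered reads, where 0 were called. For 0 of the 9 did the genotypes fail to overlap, against 6.7% of all tested genes. The median log2 fold change of the 9 was 0.13, against −0.02 for all tested genes, and 7 of 9 were above 0. Within replicates 2 to 4 alone the median was 0.28 with 8 of 9 above 0, and within replicates 5 and 6 alone −0.08 with 2 of 9 above 0. The spread between replicate sets enters the error of the fit over all embryos. The interval of Pou5f1 over all embryos allows a difference of up to 0.93 on the log2 scale and, in the fit blocked on replicate number, it ran from −0.17 to 0.21.

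**Figure D3:**
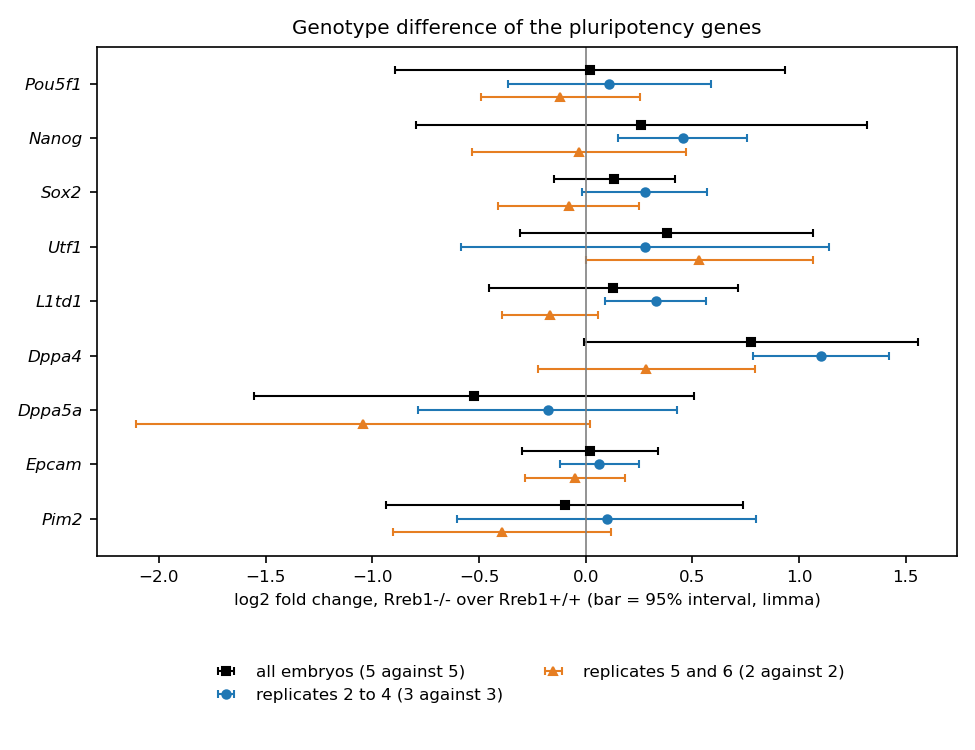
Log2 fold change of Rreb1-/- over Rreb1+/+ embryos (x axis) for each pluripotency gene, from limma, with 95% intervals. Black squares are all embryos (5 against 5), blue circles replicates 2 to 4 (3 against 3) and orange triangles replicates 5 and 6 (2 against 2). The only adjusted call among these fits is Dppa4 in replicates 2 to 4, at 1.10.

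Between the replicate sets, 7 of the 9 genes had all 4 embryos of replicates 5 and 6 below all 6 of replicates 2 to 4, the 2 others being Sox2 and Utf1. The median log2 difference, replicates 5 and 6 minus replicates 2 to 4, was −1.28 over the 9 genes in Rreb1-/- embryos and −0.70 in Rreb1+/+ embryos, and over all tested genes it was 0.00 in both. The 9 genes are part of the expression that defined the sets, so these counts describe the sets and do not test them. Of the members, Nanog differed most between the sets in both genotypes, with log2 differences of −1.82 in Rreb1-/- and −1.34 in Rreb1+/+ embryos. For 8 of the 9 genes the difference between sets was wider in Rreb1-/- than in Rreb1+/+ embryos, the exception being Utf1, with −0.45 in Rreb1-/- and −0.70 in Rreb1+/+ embryos. That contrast of differences was not tested. The lowest embryo was Rreb1-/- replicate 6 for 4 genes and Rreb1-/- replicate 5 for 2, and Rreb1+/+ replicate 5 for 2 and replicate 6 for 1. The highest was a Rreb1-/- embryo of replicates 2 to 4 for 8 of the 9, and Rreb1+/+ replicate 2 for Dppa5a. In RNA from whole embryos, fewer epiblast cells and less of these transcripts per cell cannot be told apart.

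The genes most like Pou5f1 over the 10 embryos, by the root mean square distance of centred log2 values among 12961 genes, were Vrtn (0.14), Chga (0.15), Ugt8a (0.16), A230050P20Rik (0.19) and Dll3 (0.19). Vrtn had 1226 to 1380 normalized counts in replicates 5 and 6 and 2347 to 4829 in replicates 2 to 4, a pattern close to that of Pou5f1 itself. Among the other members Nanog ranked 27th in likeness to Pou5f1, Pim2 35th, L1td1 42nd, Epcam 206th, Utf1 240th, Dppa4 350th, Sox2 622nd and Dppa5a 1960th. Nanog was most like Klhl14 (0.18), Zic5 (0.23), Slc5a7 (0.24), Unc80 (0.25) and L1cam (0.26), with Pou5f1 at rank 18. Sox2 was most like Lck (0.07), Ninl (0.09), Slc1a5 (0.10), Cnnm4 (0.10) and Bspry (0.11), and the nearest member was Epcam at rank 521. The 10 embryos share the split between replicate sets, which enters every distance, and no test was made.

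Of the other genes of the formative and primed epiblast, none was called by genotype over all embryos by limma, while several were high in Rreb1-/- replicates 2 to 4, as Dppa4 was. Of 26 listed, 25 were tested and 0 were called by genotype over all embryos by limma or edgeR, while 4 had a higher and 2 a lower level in Rreb1-/- embryos at an unadjusted limma p below 0.05. DESeq2 called Fgf4 higher (adjusted p = 0.0412) and Lin28a lower (adjusted p = 0.0184). The smallest p belonged to Lin28a and Lin28b, whose proteins block let-7 maturation, Etv4, an ETS factor induced by FGF signalling, and Foxd3, a forkhead factor of the epiblast and neural crest. For Lin28a the difference was −0.21 ± 0.06 on the log2 scale (limma, adjusted p = 0.0847), which passed with the replicate block (adjusted p = 0.0399), as did Foxd3. Foxd3 had 44.5, 47.8, 48.8, 2.8 and 5.2 normalized counts in Rreb1-/- replicates 2 to 6, against 2.9, 6.0, 16.2, 0.0 and 0.9 in Rreb1+/+ embryos. As with Dppa4, the 3 Rreb1-/- embryos of replicates 2 to 4 stood above all others, and its log2 fold change was 2.30 (limma, adjusted p = 0.230, and 0.0127 with the block).

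Within replicates 2 to 4 alone, 4 genes of that list were called higher in Rreb1-/- embryos, Tdgf1, Foxd3, Fgf5 and Fgf4, and 0 lower. Of all 15548 genes tested in that comparison 2.18% were called higher. Tdgf1, the NODAL co-receptor Cripto, had 3332, 1955, 2316, 13.0 and 10.4 normalized counts in Rreb1-/- replicates 2 to 6, against 130, 271, 376, 14.4 and 8.5 in Rreb1+/+ embryos. The mean of Tdgf1 was 2534 in Rreb1-/- and 259 in Rreb1+/+ embryos in replicates 2 to 4, and about equal in replicates 5 and 6, at 11.7 in Rreb1-/- and 11.4 in Rreb1+/+ embryos. Fgf5, the classical marker of the post-implantation epiblast, had 844, 503, 900, 88.3 and 52.2 normalized counts in Rreb1-/- replicates 2 to 6, against 142, 165, 281, 93.2 and 88.5 in Rreb1+/+ embryos. Both genes, named after their values were seen, thus had their highest levels, as Dppa4 did, in Rreb1-/- replicates 2 to 4. In Rreb1+/+ embryos Tdgf1 was also higher in replicates 2 to 4 than in replicates 5 and 6. The log2 fold changes within replicates 2 to 4 were 3.38 ± 0.37 for Tdgf1 (limma, adjusted p = 0.00567) and 1.95 ± 0.30 for Fgf5 (limma, adjusted p = 0.0173). Outside this list, the streak genes Eomes and Lhx1 also had their highest means in Rreb1-/- replicates 2 to 4, at 5076 and 1709. In Rreb1+/+ replicates 2 to 4 they averaged 1704 and 463. Over the list, 9 of 25 had all embryos of replicates 5 and 6 below all of replicates 2 to 4, against 3.29% of all tested genes. Among the 9 were Fgf5, Tdgf1, Pou3f1, Zic2 and Dnmt3b.

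Naive pluripotency genes, which mark the pre-implantation state, were a mixed group at these levels. Of 16 listed, 14 were tested and 0 were called by genotype by limma, edgeR or DESeq2, and 1 reached an unadjusted limma p below 0.05. That gene was Tdh, a threonine dehydrogenase of mouse pluripotent cells, with a mean of 3445 in Rreb1-/- and 4503 in Rreb1+/+ embryos (limma, adjusted p = 0.131). Nr5a2, Gbx2 and Nr0b1 followed by p, at log2 fold changes of −0.61, −0.77 and 0.77 that did not pass. Within replicates 2 to 4 alone Tdh (−0.54) and Gbx2 (−1.31) were called lower in Rreb1-/- embryos, where 3.59% of 15548 genes were called either way. Esrrb, Nr0b1 and Dppa2 had replicates 5 and 6 below replicates 2 to 4 in every embryo, and Gbx2, a homeobox gene that also marks neurectoderm, had them above. Several of these genes are also used by extraembryonic ectoderm, which was part of the tissue sequenced.

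Markers of other tissues moved with the replicate sets beside the members, and like them are part of the expression that defined the sets. Of all tested genes 5.37% were higher and 3.29% lower in all embryos of replicates 5 and 6. Primitive blood genes had the opposite order to the members, with 10 of 12 higher in all embryos of replicates 5 and 6. Their median log2 differences were 2.92 in Rreb1-/- and 1.77 in Rreb1+/+ embryos. Their summed normalized counts in Rreb1-/- embryos were 7256 to 7379 in replicates 5 and 6 and 2330 to 2646 in replicates 2 to 4, against 12127 to 17313 and 3870 to 4559 in the same sets of Rreb1+/+ embryos. Endothelial genes followed, with 8 of 10 higher in replicates 5 and 6 and summed counts in Rreb1-/- embryos of 8549 to 8829 in those and 4049 to 4812 in replicates 2 to 4, against 10067 to 11269 and 4343 to 5612 in Rreb1+/+ embryos. Primitive streak and nascent mesoderm genes went with the members in their median but not as a whole. Their median log2 differences were −1.49 in Rreb1-/- and −0.65 in Rreb1+/+ embryos, and 5 of 13 were lower in all embryos of replicates 5 and 6. Msgn1 went the other way, at 3.12 in Rreb1-/- and 0.33 in Rreb1+/+ embryos, as did Fgf8, at 0.26 and 0.11. Tbx6 did so in Rreb1-/- embryos alone, at 0.67 against −0.31 in Rreb1+/+ embryos. The list, in which T and Eomes had the highest counts, summed in Rreb1-/- embryos to 5186 to 7435 in replicates 5 and 6 and 16786 to 18280 in replicates 2 to 4. In Rreb1+/+ embryos the sums were 5504 to 6055 and 11916 to 16697. Extraembryonic and lateral mesoderm (1.12 in Rreb1-/- and 0.45 in Rreb1+/+ embryos, 5 of 12 higher) and neurectoderm (1.09 in Rreb1-/- and 0.38 in Rreb1+/+ embryos, 3 of 10 higher) lay on the side of blood. By genotype, over all embryos, limma and edgeR called 0 genes of the blood, endothelial, streak, extraembryonic and lateral mesoderm, extraembryonic ectoderm, germ cell and maternal lists, with 5 higher and 4 lower at an unadjusted limma p below 0.05 over those 7 lists, and DESeq2 called 1 higher, Lhx1, and 1 lower, Tbx6. The part of tissue composition or of developmental stage in the members' levels was not tested.

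The lists that bear on other sources of the members' RNA were less uniform. Extraembryonic ectoderm and trophoblast genes, whose tissue also carries Sox2 and Utf1, summed in Rreb1-/- embryos to 12960 to 13400 in replicates 5 and 6 and 20523 to 23664 in replicates 2 to 4, against 14235 to 18357 and 14546 to 21051 in Rreb1+/+ embryos. Of those 14 genes 3 were lower in all embryos of replicates 5 and 6, against 3.29% of all tested genes. Primordial germ cells express Pou5f1, Nanog and Sox2 too. The germ cell list had 1 of 8 tested genes lower and 3 higher in replicates 5 and 6, against 3.29% and 5.37% of all tested genes. Dppa3, the germ cell marker Stella, did not exceed 9.6 normalized counts in any embryo. Visceral endoderm genes summed in Rreb1-/- embryos to 216765 to 313884 in replicates 5 and 6 and 228422 to 290806 in replicates 2 to 4, against 292882 to 327726 and 293620 to 314437 in Rreb1+/+ embryos, with 0 of 14 non-overlapping between sets and 3, Fga, Afp and Apoa4, called lower in Rreb1-/- embryos over all embryos. Of the parietal endoderm genes 1 of 10, Plat, was called higher in Rreb1-/- embryos, and in neurectoderm En1 was called higher and Nes lower. Maternal decidua and immune genes (4 tested of 10) summed in Rreb1-/- embryos to 2165 to 2584 in replicates 5 and 6 and 268 to 330 in replicates 2 to 4, against 1779 to 2399 and 667 to 862 in Rreb1+/+ embryos. Acta2, which mesoderm also expresses, averaged 1900 in replicates 5 and 6 and 54.4 in replicates 2 to 4 of Rreb1-/- embryos, against 1705 and 447 in the same sets of Rreb1+/+ embryos.

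**Figure D4:**
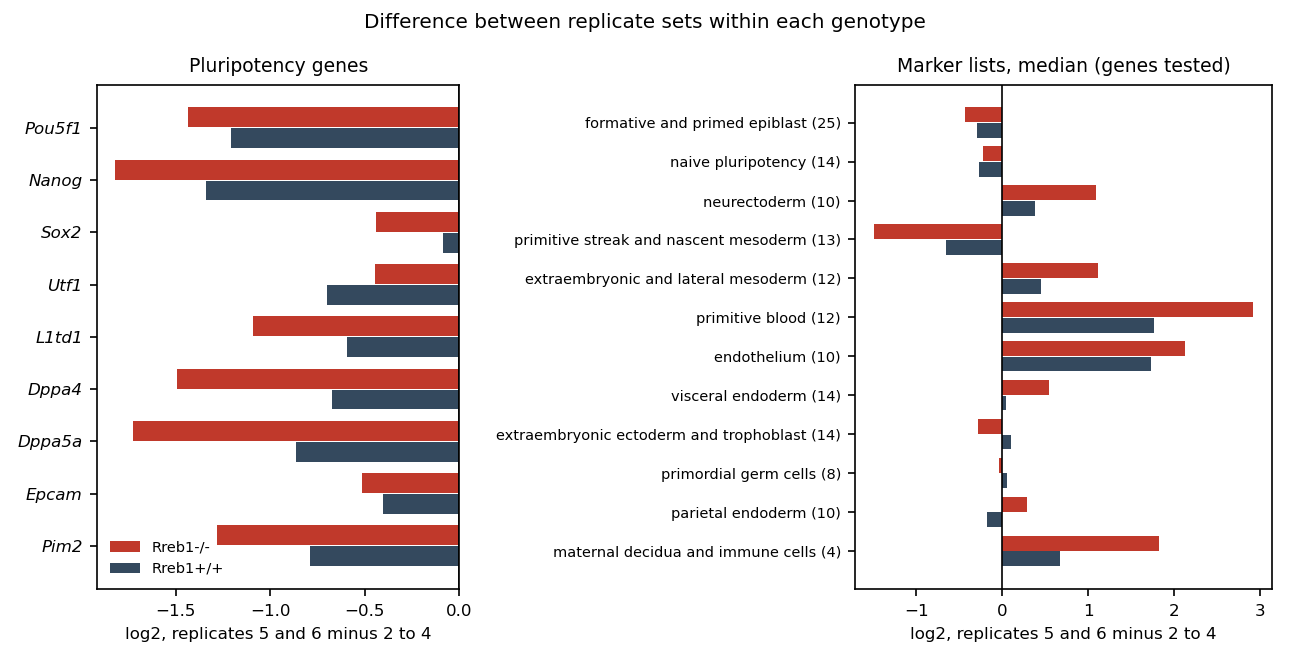
Log2 difference of replicates 5 and 6 minus replicates 2 to 4 (x axes) within Rreb1-/- (red, upper bars) and Rreb1+/+ (dark, lower bars) embryos. The left panel shows each pluripotency gene and the right panel the median of each marker list, with the number of genes tested in brackets. All 9 genes lie below 0 in both genotypes, and primitive blood has the highest median, 2.92 in Rreb1-/- embryos.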

How the data were processed

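Single-embryo polyA RNA was sequenced as stranded TruSeq libraries in paired-end runs on an Illumina HiSeq. Per the study's methods, the authors mapped reads with STAR in 2 passes, handled alignments with Picard, counted reads per gene with HTSeq and scaled the counts with DESeq. Which genome build and gene models they used is not given in the sources used here. The deposited values are a signal of normalized counts, gene counts divided by a size factor per embryo. In each embryo 100% of values were whole multiples, within 0.1 of a read, of a single step, which gave back whole reads. No column of another sample was present (0).

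Normalized counts were analysed as log2(value + 1), so fold changes of low genes are understated. Testing was limited to genes averaging 15 or more in either genotype, and was done with limma 3.58.1 (R 4.3.3), and p-values were adjusted by Benjamini-Hochberg over all genes tested, with calls at an adjusted p under 0.05. The design has no covariate. Single genes also had an exact permutation test (two-sided, all 252 arrangements), whose smallest p is 0.00794 (0.1 for 3 against 3 and 0.333 for 2 against 2). Within a replicate set the spread is estimated from 3 or 2 embryos per genotype. edgeR 4.0.16 on the recovered reads called 506 genes higher and 168 lower in Rreb1-/- embryos, and limma 486 and 179. Other alternatives were DESeq2 1.42.0, TMM factors, other pseudocounts and filters, a threshold of 0.01, the replicate number as a block, the replicate set as a factor, the summed Y-linked level as a covariate, each set alone, and leaving out each embryo.

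The labels number replicates 2 to 6 in both genotypes without saying what a number shares. Deviations from the genotype means of same-numbered embryos correlated in all 5 pairs (0.253 to 0.459 over genes), but only 1 Rreb1-/- embryo correlated best with the Rreb1+/+ embryo of its own number. Pairs of other numbers within a replicate set reached −0.00307 to 0.492 and pairs across the sets −0.458 to −0.134, so the split between sets enters these values. As every same-numbered pair was above 0.1, a fit with the replicate number as a block is printed beside each result whose call it changes. The fit without the block is the one reported otherwise. Each embryo is a separate animal.

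The members and gene lists were chosen with earlier results of these data known. Named were all 9 members, the called genes of each list and up to 4 with the smallest p, the 5 genes most like Pou5f1, Nanog and Sox2 with a mean of at least 50, Rreb1, and sex-linked transcripts. Other genes named were picked after their values were seen. Gene positions and exon lengths are from GENCODE M21 (GRCm38). Copies were sought by aligning member transcripts to all GENCODE transcripts.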

Additional observations from a re-analysis of the deposited data

Results flagged for a closer look

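In 2 of the 18 groups formed by a gene and a genotype, a single embryo stood far from the other 4 by Dixon's ratio. About 1 in 20 such groups would do so by chance. Sox2 in Rreb1+/+ replicate 4 had 1229 normalized counts, above the 1007 to 1033 of the other Rreb1+/+ embryos. Utf1 in Rreb1-/- replicate 3 had 1737 normalized counts, above the 694 to 926 of the other Rreb1-/- embryos.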

How the results depend on the processing

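Over 23 alternatives for each of the 9 genes, 181 of 207 fold changes kept their direction and their side of the threshold, 23 turned and 3 passed the threshold. The 3 were Dppa4 with the replicate block, with the replicate set as a factor (adjusted p = 0.0173) and in replicates 2 to 4 alone, which made 1 member called higher in each, and the replicate block changed no other member's call. In replicates 5 and 6 alone the log2 fold change turned to −0.12 for Pou5f1, −0.0317 for Nanog, −0.08 for Sox2, −0.17 for L1td1 and −0.0489 for Epcam. In replicates 2 to 4 alone that of Pim2 turned to 0.10. With the Y-linked covariate it was −0.0681 for Utf1, 0.27 for Dppa5a, 1.0035 for Nanog, 0.65 for L1td1 and 1.34 for Dppa4, none of them past the threshold. Leaving out 1 embryo at a time gave −0.20 to 0.28 for Pou5f1, −0.0071 to 0.31 for L1td1, −0.0617 to 0.10 for Epcam and −0.36 to 0.18 for Pim2, and without turning, 0.0180 to 0.58 for Nanog, 0.04 to 0.24 for Sox2, 0.15 to 0.61 for Utf1, 0.58 to 1.05 for Dppa4 and −0.75 to −0.14 for Dppa5a. None of these turned values passed the threshold. Genes called higher and lower numbered 790 and 423 by DESeq2, 229 and 55 at a threshold of 0.01, 753 and 381 with the set as a factor, 83 and 24 with the Y-linked covariate, and 83 and 21 in replicates 5 and 6 alone. With the replicate block 716 were higher and 356 lower. Without 1 embryo 342 to 435 were higher and 99 to 207 lower, with 111 lower without Rreb1-/- replicate 4 and 101, 112, 99 and 101 lower without Rreb1+/+ replicates 3, 4, 5 and 6. The cause was not tested. With 5 embryos per genotype in 2 replicate sets, the intervals given limit what could be seen, and sex and genotype are told apart only in part.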
